A study of Mus musculus with 3 samples.

Results

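The developmental pluripotency-associated genes Dppa2, Dppa3, Dppa4 and Dppa5a were followed together with Utf1, Gdf3, L1td1, Fbxo15 and Pecam1 in 3 cultures of mouse pluripotent stem cells. They are genes associated with mouse embryonic stem cells (mESCs) that lie outside the core transcription factor network. These 9 genes were taken by symbol from 22180 genes measured on the array, and each was represented by 1 probe set. Both mESC cultures were of the established line EB3. The first, called Activin+PD, received Activin A at 20 ng/ml, a ligand that signals through SMAD proteins, together with the MEK inhibitor PD0325901 at 2 µM, over 64 days. The second, called 2i, received PD0325901 at 2 µM together with the GSK3 inhibitor CHIR99021, also at 2 µM, over 34 days. Mouse epiblast stem cells (mEpiSCs), derived by induction of EB3 mESCs, were the third culture and received Activin A at 20 ng/ml and bFGF at 12 ng/ml. N2B27 was the base medium of every culture, and the MEK inhibitor was shared by both mESC cultures and not used for the mEpiSCs. Each culture was hybridised to 1 Affymetrix Mouse Gene 2.0 ST array. Culture condition, time in culture and array cannot be told apart, no difference was tested, and "higher" and "lower" describe these 3 arrays.

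Mouse pluripotent cells are kept in culture in a naive state, which resembles the epiblast before implantation, or in a primed state, which resembles it afterwards. Many transcripts that mark undifferentiated mESCs were found by searching for genes that are silent in somatic tissues, and several belong to families that are active in the early embryo and the germ line. They encode chromatin proteins (Dppa2, Dppa4, Utf1), a protector of DNA methylation in the zygote (Dppa3), RNA-binding proteins (Dppa5a, L1td1), a secreted ligand (Gdf3), a ubiquitin ligase subunit (Fbxo15) and an adhesion molecule (Pecam1).

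The tissue label of the mEpiSC array reads mESC like the others, while its title and source name it mEpiSC, so markers of both states were checked. All 7 naive markers listed were at least 2-fold lower in mEpiSCs than in 2i, with a median log2 difference of -4.06, and 5 of 6 primed markers were at least 2-fold higher, with a median of 2.82. Between Activin+PD and 2i, 0 of 7 naive markers were 2-fold apart. Such a gap was rare among all genes compared, with 1.38% upward and 0.82% downward. The count of 0 therefore does not set the naive markers apart from other genes. In Activin+PD minus 2i, Prdm14 came closest to 2-fold, at 0.97, and only Klf4 was negative, at -0.27. Of the 6 primed markers, 2 were 2-fold apart. These were Fgf5, by 1.48, and Otx2, by at least 2.23, both with the larger value in Activin+PD. The other 4 primed markers stayed within 2-fold and did not share a direction. In Activin+PD minus 2i, Dnmt3b and Fst were each at -0.60, against 0.32 for Sox3 and 0.24 for Pou3f1. A gene was treated as above background on an array when its log2 intensity exceeded the 95th percentile of olfactory and vomeronasal receptor probe sets, which lay at 5.50, 5.59 and 5.57 on the arrays of Activin+PD, 2i and mEpiSC. The number of arrays limits the precision. The only error estimate the data give is the disagreement between different probe sets of 1 gene. On the log2 scale its standard deviation (SD) was 0.24 between the mESC cultures, 0.36 between mEpiSC and 2i, and 0.33 between mEpiSC and Activin+PD. It leaves out the variation between cultures.

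The 9 genes ranged from at least 23.5-fold lower to 2.65-fold higher in mEpiSCs than in 2i. Utf1 and L1td1 were highest in mEpiSCs, and the other 7 genes were lowest there, though the differences of Dppa5a and the 0.23 between mEpiSC and Activin+PD for L1td1 lay within the probe set spread. Against 2i, 4 of 9 genes were at least 2-fold lower in mEpiSCs, beside 4.96% of the 14223 genes compared, and 1 of 9 was at least 2-fold higher, beside 4.53%. Their median log2 difference was -0.92, against 0.030 over all genes compared. The 4 lower genes were Fbxo15, Gdf3, Pecam1 and Dppa4, and the higher one was Utf1. Between the mESC cultures all 9 genes stayed within 2-fold. A 2-fold or larger gap separated these cultures for only 1.38% of genes upward and 0.82% downward in Activin+PD. Staying within 2-fold therefore does not set the 9 genes apart from the others.

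**Figure D1:**
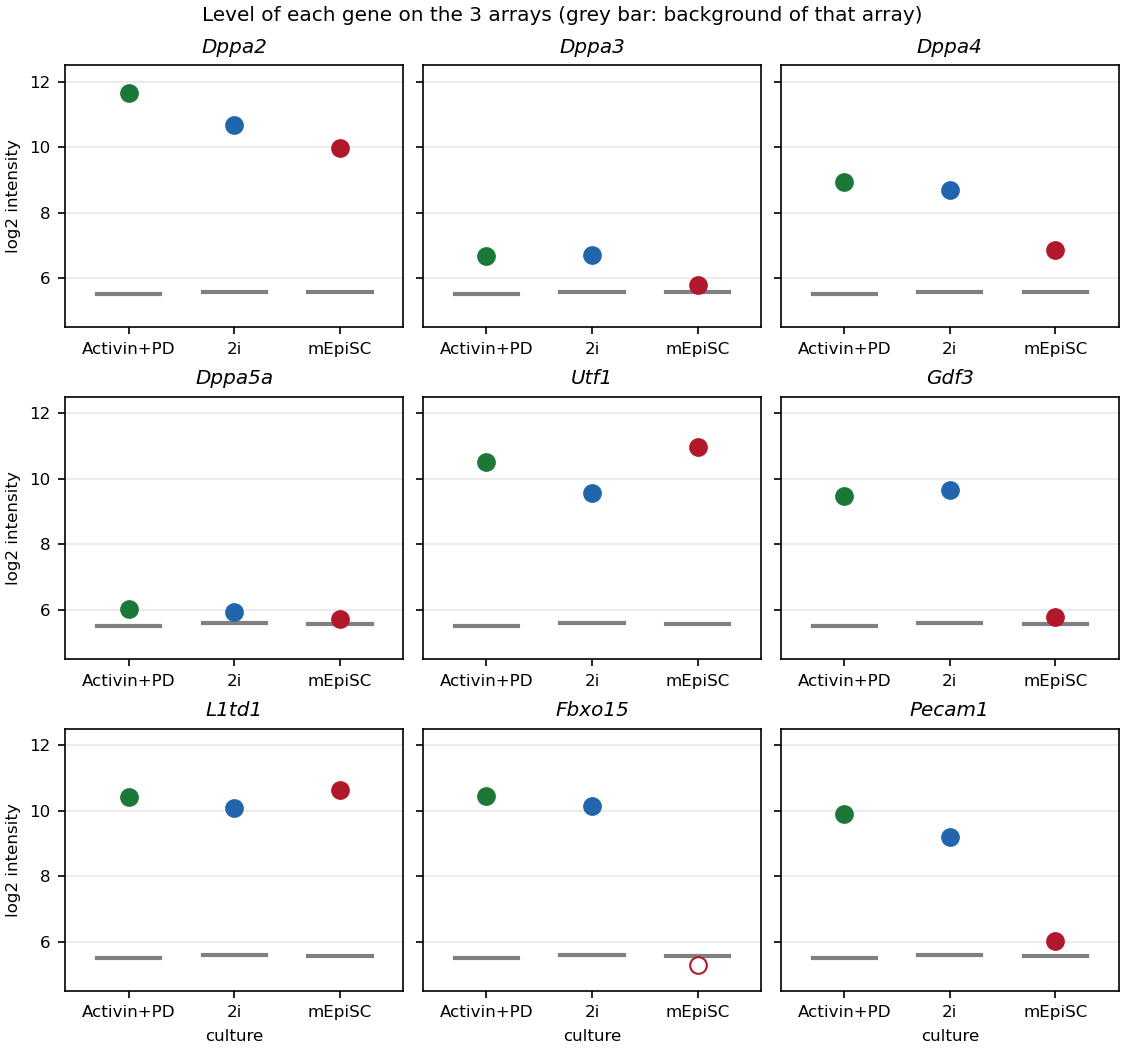
The log2 intensity of each of the 9 genes (vertical axis) is plotted for the Activin+PD, 2i and mEpiSC arrays, 1 point per array, with a grey bar at the background of that array and an open point where the gene was not above it. Fbxo15, Gdf3, Pecam1 and Dppa4 are far lower in the mEpiSC culture, with Fbxo15 at 5.29, whereas Utf1 at 10.97 and L1td1 at 10.64 are at their highest there.

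Dppa2 and Dppa4 encode paired chromatin proteins with a SAP domain that act as a complex and, in mESCs, keep developmental promoters open to activation and promote genes of the 2-cell stage. Dppa2 reached log2 11.66 in Activin+PD, 10.67 in 2i and 9.98 in mEpiSCs. It was thus graded over the 3 cultures, with the Activin+PD culture at the top. Dppa4 stood at 8.93 in Activin+PD, 8.70 in 2i and 6.85 in mEpiSCs. Its mESC levels lay close together, apart by 0.23, which was within the probe set spread, and the mEpiSC level was well below both. The partners therefore differed in where the gap lay. Against 2i, the mEpiSC level of Dppa2 was lower by a log2 difference of -0.69, a 1.61-fold change, and that of Dppa4 by -1.85, a 3.60-fold change. Against Activin+PD these differences were -1.69 and -2.08. The Activin+PD excess of Dppa2 over 2i was 0.996, just short of 2-fold, and it ranked 196 from the highest among 14022 genes compared. Scaling decided on which side of 2-fold it fell, since it was 1.01 after quantile normalisation or median centring.

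Genes of the 2-cell stage, a programme known to depend on Dppa2 and Dppa4, were followed as a list. Of its 18 measured members, 9 were above background in Activin+PD, 8 in 2i and 3 in mEpiSCs. In mEpiSC minus 2i, 5 of 8 compared members were at least 2-fold lower, 0 were higher, and the list median was -1.53. The compared members are those bright enough in the higher culture, and over all 18 the median was -0.26. Zscan4e, a telomere-linked zinc finger gene of a near-identical family, was lower by at least 2.62, Zscan4b by at least 2.13, Zscan4d by at least 1.52 and Zscan4c by at least 1.46. The count of lower genes thus rests largely on 1 family, and the other lower gene was Usp17le, by at least 1.31. Zscan4a, of the same family and above background on every array, was at only -0.29. The words "by at least" mark a bound, given where the dimmer array did not exceed background. In Activin+PD minus 2i, 0 of 9 compared members were 2-fold apart and the median was 0.22. Duxf3, the master activator of this stage, was not above background on any array. Whether the probe sets tell the Zscan4 copies apart was not tested.

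Dppa3, also called Stella, encodes a small protein that shields maternal DNA methylation in the zygote and marks primordial germ cells. Its log2 level was 6.68 in Activin+PD, 6.71 in 2i and 5.79 in mEpiSCs. The 2 mESC arrays were nearly equal, differing by -0.033, and mEpiSC minus 2i was -0.92, or 1.90-fold lower. The mEpiSC level was only 0.22 above the background of its array. If a constant was added to the intensities before they were deposited, folds of dim genes such as this one are understated, and with 16 subtracted from each intensity the difference was -1.18.

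Primordial germ cell genes were listed for comparison with Dppa3. In mEpiSC minus 2i, 5 of 10 were at least 2-fold lower, beside 4.96% of all genes compared. None of the list was 2-fold higher, beside 4.53%, and the list median was -0.98. Prdm14, a germ cell and naive state repressor of differentiation genes, was lower by at least 2.30. The interferon-induced membrane protein gene Ifitm3 was at -1.26 and Sox15 at -1.09, and Ifitm1 was lower by at least 1.14. Lin28a at 0.98 and Prdm1 at 0.55 went the other way, both short of 2-fold. In Activin+PD minus 2i, 2 of 10 were at least 2-fold higher, namely the receptor gene Kit at 1.74 and Prdm1 at 1.17. Nanos3, a germ cell RNA-binding protein gene, stayed near 5.9 on all arrays, at 5.90, 5.91 and 5.87. Of 7 genes that maintain or remove DNA methylation, among them the known Dppa3 binding partner Uhrf1, 2 were at least 2-fold lower in mEpiSCs than in 2i. They were the methylcytosine oxidase gene Tet2 at -3.62 and the imprint keeper Zfp57 at -1.17, whereas Uhrf1 differed by -0.15.

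Dppa5a, or Esg1, encodes a KH-domain protein that binds RNA and is known as a marker of mESCs. Its log2 level was 6.03 in Activin+PD, 5.93 in 2i and 5.72 in mEpiSCs. On no array was it more than 0.53 above background, and none of its 3 differences, 0.10, -0.21 and -0.31, exceeded the probe set spread. No order of the cultures can be read from it at this signal. The gene table lists the pseudogenes Dppa5b and Dppa5c, and whether the probe set also reads them was not tested. Of 6 genes listed with it, its relatives and Dppa1, 4 (Khdc1a, Khdc1b, Khdc1c and Dppa1) were not above background on any array. Ooep, a family member known from oocytes, stood at 8.80 in Activin+PD, 7.84 in 2i and 6.23 in mEpiSCs. Its mEpiSC minus 2i difference was -1.61. Khdc3, another oocyte member, lay between 5.92 and 6.14 on the 3 arrays.

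Utf1 encodes a chromatin-bound coactivator that is confined to the early epiblast, stem cells and germ cells and is a known target of OCT4 and SOX2. Its log2 level was 10.52 in Activin+PD, 9.57 in 2i and 10.97 in mEpiSCs. Both cultures with Activin A lay above 2i, and the mEpiSC level was the highest. The difference was 1.41, or 2.65-fold, in mEpiSC minus 2i, 0.95 in Activin+PD minus 2i and 0.45 in mEpiSC minus Activin+PD, each more than the probe set spread of its comparison. Utf1 ranked 349 from the highest among the 14223 genes compared for mEpiSC minus 2i, and 220 from the highest among the 14022 for Activin+PD minus 2i. Activin A, the other additions and the time in culture cannot be told apart here.

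L1td1 encodes an RNA-binding protein derived from the first open reading frame of a LINE-1 transposon and is known for its high level in pluripotent cells. It stood at 10.40 in Activin+PD, 10.09 in 2i and 10.64 in mEpiSCs. It spanned 0.55, or 1.46-fold, and had the smallest span of the 9 genes apart from the dim Dppa5a. The order of the cultures was that of Utf1, but mEpiSC minus Activin+PD was 0.23, within the probe set spread.

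The promoter table from RefSeq (build GRCm38.p6, 250 bases before to 50 after the start site) matched 2 of the 9 genes, Utf1 and L1td1, and these are shown because they were the ones matched. Capitals mark the GC box GGGCGG, searched on both strands, where matches that overlap run together. The L1td1 promoter is chr4:98726504-98726803, plus strand, and the Utf1 promoter is chr7:139943606-139943905, plus strand.
L1td1: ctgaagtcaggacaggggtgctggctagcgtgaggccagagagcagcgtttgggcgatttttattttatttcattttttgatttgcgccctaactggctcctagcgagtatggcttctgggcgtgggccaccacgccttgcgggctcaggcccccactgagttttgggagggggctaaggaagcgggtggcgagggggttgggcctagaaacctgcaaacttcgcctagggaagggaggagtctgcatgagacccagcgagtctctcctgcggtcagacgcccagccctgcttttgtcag
Utf1: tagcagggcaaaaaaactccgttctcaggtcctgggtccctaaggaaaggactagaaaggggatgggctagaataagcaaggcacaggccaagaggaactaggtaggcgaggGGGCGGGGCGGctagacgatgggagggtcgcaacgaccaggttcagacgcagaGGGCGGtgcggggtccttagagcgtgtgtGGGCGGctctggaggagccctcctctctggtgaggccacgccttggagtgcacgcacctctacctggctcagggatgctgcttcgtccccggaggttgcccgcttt

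The Utf1 window held 4 GC boxes, of which 2 overlap, and the L1td1 window held 0. Among the 32851 promoters of the table, 35.7% had at least 1 such box and 5.49% had at least 4, a number taken from Utf1 itself. Neither window held the octamer ATGCAAAT, present in 1.74% of promoters, or the SOX motif ATTGTT, present in 10.7%. The same held for CCAAT (37.4%), TATAAA (13.6%), the ESRRB motif AAGGTCA (4.72%), the TCF/LEF motif CTTTGA (5257 of the promoters), CACGTG (7.15%) and the ETS motif CCGGAAG (8.86%), each searched on both strands. The windows held 17 CpG dinucleotides in Utf1 and 14 in L1td1, against a median of 7 over all promoters, and 68.6% and 63.7% of promoters had fewer. A match describes letters only, and no match says nothing of a factor.

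Gdf3 encodes a secreted ligand of the TGF-beta family that is known to act like Nodal through the co-receptor Tdgf1 and to block BMP signals. Its log2 level was 9.49 in Activin+PD, 9.67 in 2i and 5.78 in mEpiSCs. The mESC cultures differed by -0.17, within the probe set spread, and the mEpiSC level was 14.8-fold below 2i, a log2 difference of -3.89. It ranked 21 from the lowest of 14223 genes compared. The mEpiSC signal was 0.21 above background, so the fold is limited by the background.

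The relatives and receptors of Gdf3 were mixed. Of the 8 compared, 2 were at least 2-fold lower and 2 higher in mEpiSC minus 2i, with a median of -0.0073. Tdgf1 stood at 10.15 in Activin+PD, 8.85 in 2i and 11.29 in mEpiSCs, highest in the culture where Gdf3 was lowest. The Nodal antagonist genes Lefty1 and Lefty2 were at 1.02 and -1.52 in mEpiSC minus 2i, and the receptor gene Acvr1b was at -1.33. Nodal itself was at 9.12, 8.68 and 8.57 in Activin+PD, 2i and mEpiSCs. In Activin+PD minus 2i, Lefty1, Lefty2 and Tdgf1 were higher by 2.64, 2.22 and 1.30 and Acvr1b was at -1.20, while Gdf3 was within 2-fold.

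Fbxo15 encodes an F-box protein, the substrate-binding part of an SCF ubiquitin ligase, and is known as an OCT4 and SOX2 target whose reporter marks reprogrammed cells. It stood at 10.46 in Activin+PD, 10.13 in 2i and 5.29 in mEpiSCs, where it was not above background. It was therefore lower in mEpiSCs by at least 4.56 than in 2i, or at least 23.5-fold, and by at least 4.89 than in Activin+PD. With its measured value it ranked 8 from the lowest in both comparisons. Of its SCF partners and other F-box genes, 0 of 16 were at least 2-fold apart in mEpiSC minus 2i, and the list median was 0.023. Over all genes compared, 4.96% were lower and 4.53% higher, so the count of 0 does not set this list apart. Against Activin+PD, 2 of 16 were at least 2-fold lower in mEpiSCs, beside 5.37% of all genes compared. They were Fbxo6 at -1.19 and Fbxo27 at -1.13. Skp1, the adaptor of the complex, was at 10.16, 10.30 and 10.33 in Activin+PD, 2i and mEpiSCs, and the scaffold gene Cul1 at 9.82, 9.90 and 10.26.

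Pecam1, or CD31, encodes a surface adhesion molecule best known from endothelial cells and platelets and also present on naive mESCs and the inner cell mass. Its log2 level was 9.89 in Activin+PD, 9.19 in 2i and 6.02 in mEpiSCs. mEpiSC minus 2i was -3.17, or 9.03-fold lower, and Activin+PD was above 2i by 0.70, or 1.62-fold. Endothelial markers were checked because Pecam1 is one. Of 14 listed, 6 were above background in Activin+PD, 8 in 2i and 7 in mEpiSCs, and their summed intensity was 1600, 1524 and 758. Vwf, Emcn, Tie1, Esam, Icam2 and Ptprb were not above background on any array. Cdh5 and Kdr lay close to it, between 5.31 and 5.90. Egfl7 was above background on every array, at 6.66 in Activin+PD, 6.69 in 2i and 6.64 in mEpiSCs. Cd34 and Robo4 were also above it on every array, at lower levels. Eng, a TGF-beta co-receptor gene on this list, stood at 9.79, 9.80 and 6.99 in Activin+PD, 2i and mEpiSCs and made up most of the change in the sum. Tek was higher in Activin+PD by 1.54.

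Of the fibroblast markers, checked for feeder cells, 0 of 7 compared were 2-fold apart in each of the 3 comparisons. Their summed intensity was 2129 in Activin+PD, 2993 in 2i and 2669 in mEpiSCs. Vim alone, at log2 10.53, 11.21 and 10.92 in that order, made up most of each sum. Dcn, Lum, Postn, S100a4 and Fap were not above background on any array. Of 7 extraembryonic endoderm markers compared in mEpiSC minus 2i, 2 were at least 2-fold higher, beside 4.53% of all genes compared. They were Gata6, not above background in either mESC culture and at 7.09 in mEpiSCs, and Foxa2, higher by 1.76. The other 5 were within 2-fold: Dab2 at 0.52, Sox17 at 0.50, Pth1r at 0.12, Gata4 at 0.11 and Afp higher by at least 0.15. Sox7 and Ttr were not above background on any array. The summed intensity of these markers was 526, 510 and 851 in Activin+PD, 2i and mEpiSCs. Their part in the differences of the 9 genes was not tested. Fewer cells that express a gene and less RNA per cell cannot be told apart in bulk RNA.

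**Figure D2:**
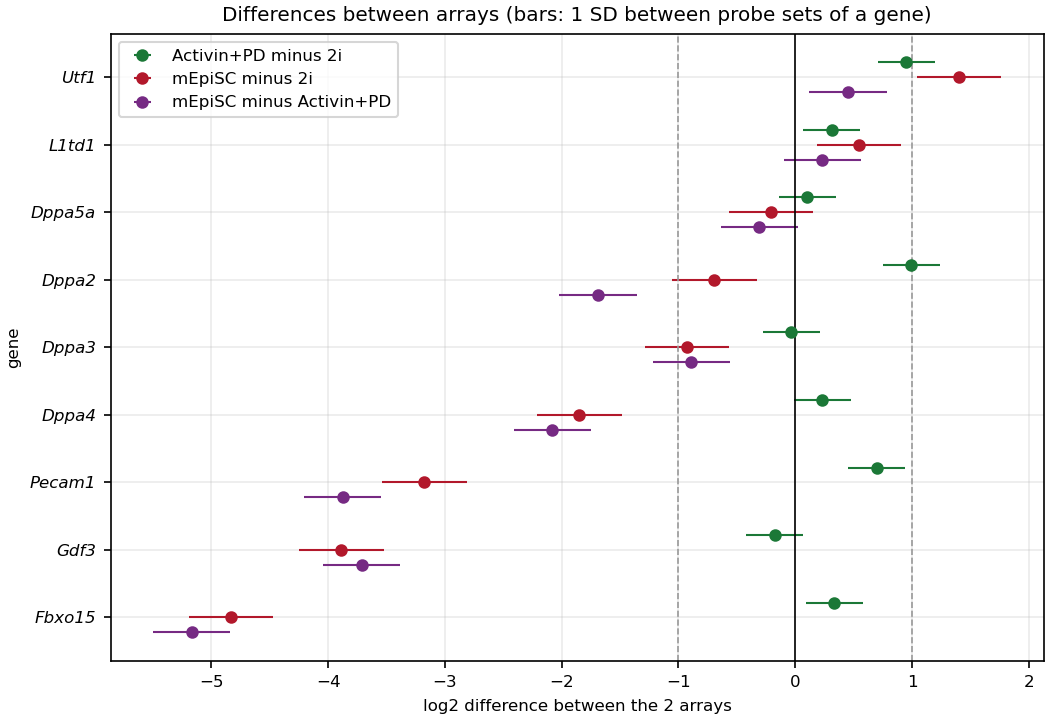
The log2 difference of each of the 9 genes (horizontal axis) is plotted for the 3 comparisons between arrays, with dashed lines at 2-fold and bars of the probe set spread (1 SD), which does not measure the variation between cultures. Measured values are drawn, so the mEpiSC points of Fbxo15 lie beyond its bounds. Those bounds are lower by at least 4.56 than 2i and by at least 4.89 than Activin+PD. All differences of Activin+PD minus 2i lie between -0.17 and 0.996, whereas those of mEpiSC minus 2i reach -4.83 as measured.

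The comparison of the mESC cultures asked whether these genes held their 2i level when Activin A replaced CHIR99021. Of the 9 genes, 0 reached 2-fold in either direction, beside 1.38% upward and 0.82% downward of the 14022 genes compared. With shares this small, the count of 0 does not set these genes apart from the others. The median difference was 0.32, against -0.0059 over all genes. A positive difference was seen in 7 of 9 and a negative one in 2, where 50.9% of all genes compared were below 0. Dppa2, Utf1 and Pecam1, at 0.996, 0.95 and 0.70, exceeded the probe set spread by the widest margin. Fbxo15 at 0.33 and L1td1 at 0.32 exceeded it slightly. Dppa4 at 0.23, Dppa5a at 0.10, Dppa3 at -0.033 and Gdf3 at -0.17 did not. Many other genes differed as much as Fbxo15 and L1td1, which ranked 1528 and 1653 from the highest of the 14022 compared.

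mEpiSCs were also set against Activin+PD, since both were grown with Activin A. This comparison uses the same 3 arrays as the others and equals the difference between them, so it adds no independent value. At least 2-fold lower in mEpiSCs were 5 of 9 genes, beside 5.37% of the 14383 compared, and 0 were at least 2-fold higher, beside 3.59%. Their median was -1.69, against 0.042 over all genes compared. The 5 genes were Fbxo15, Pecam1 at -3.87, Gdf3 at -3.71, Dppa4 at -2.08 and Dppa2 at -1.69. Dppa2 thus passed 2-fold here and not against 2i.

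**Figure D3:**
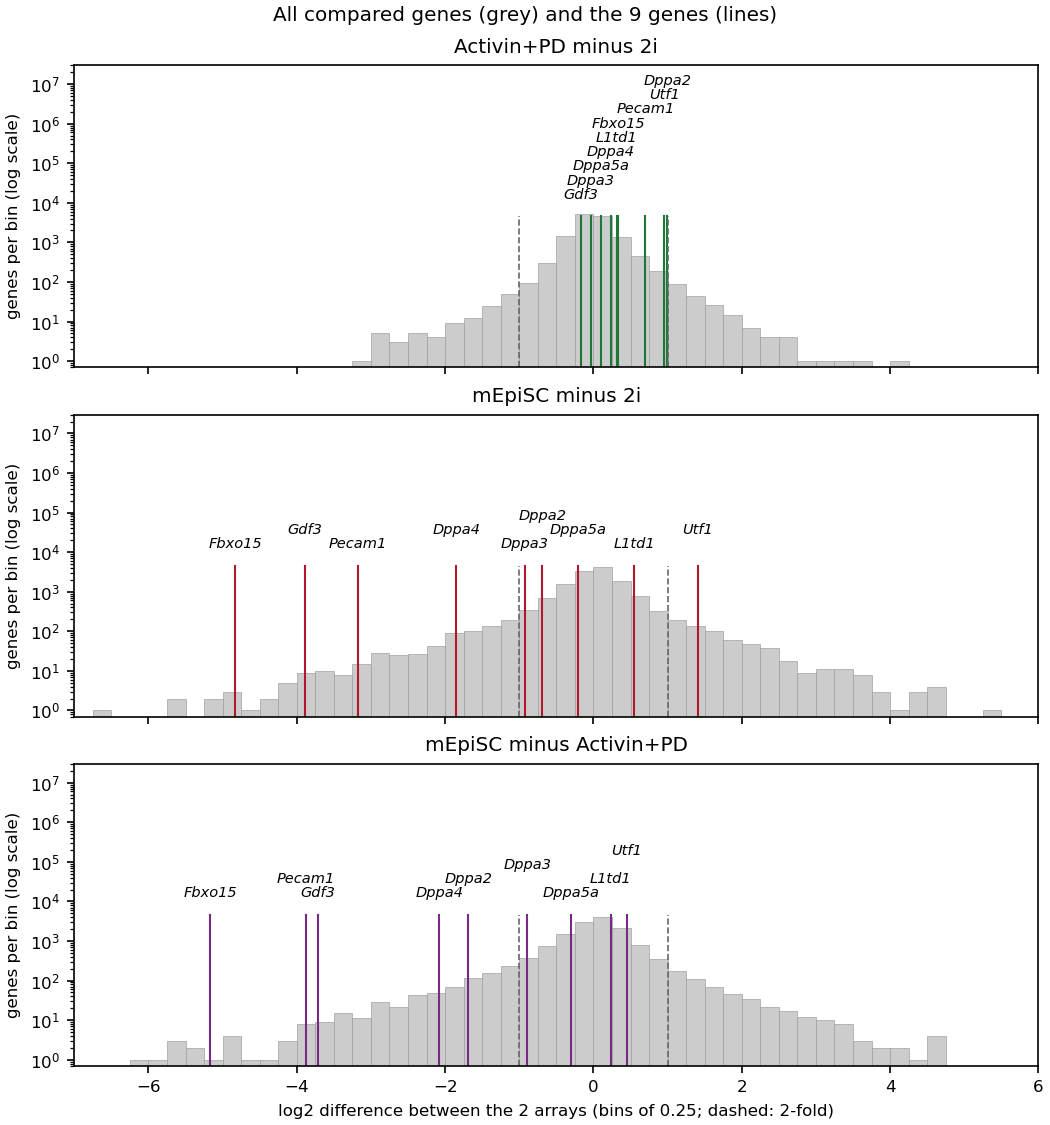
Grey bars count all compared genes by their log2 difference (horizontal axis, bins of 0.25) on a log axis, and coloured lines mark the 9 genes, with dashed lines at 2-fold. In mEpiSC minus 2i, Fbxo15, Gdf3 and Pecam1 lie in the lower tail at ranks 8, 21 and 49 of 14223, while in Activin+PD minus 2i all 9 lie between the dashed lines.

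Other ESC-associated transcripts were listed for comparison, and 16 of 20 were analysed here. In mEpiSC minus 2i, 13 of 16 were at least 2-fold lower and 1 was higher, with a list median of -1.82. Jam2, a junction adhesion gene, was at -5.53, Rex2 at -3.66 and Tcl1, an activator of AKT, at -3.09. Calcoco2, an autophagy receptor gene, was lower by at least 3.21. The higher one was Tdgf1, at 2.44. In Activin+PD minus 2i, 14 of 16 were within 2-fold, and Calcoco2 at 2.09 and Tdgf1 at 1.30 were higher. Against Activin+PD, 13 of 16 were at least 2-fold lower in mEpiSCs, including Jam2 at -5.74, Rex2 at -3.50, Tcl1 at -3.37 and Calcoco2 by at least 5.30.

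**Figure D4:**
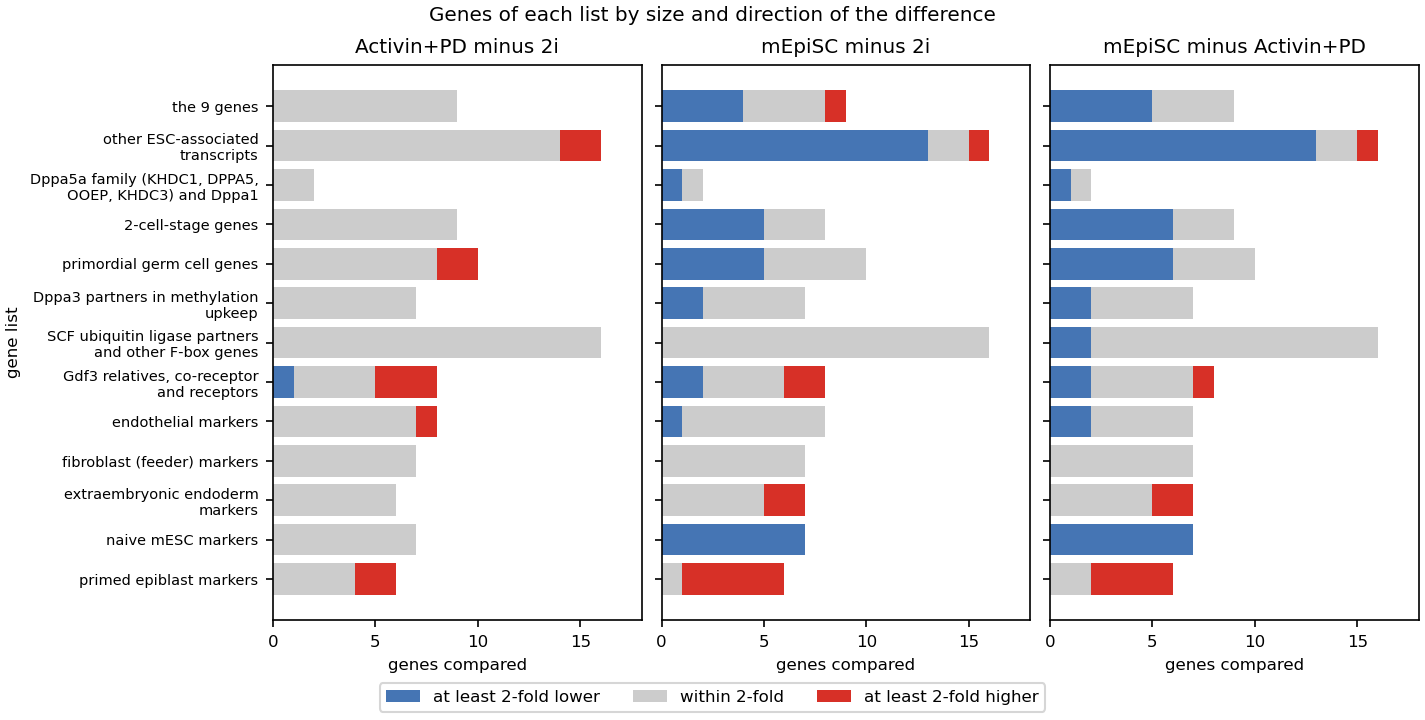
For the 9 genes and each list, bars count the compared genes (horizontal axis) that were at least 2-fold lower (blue), within 2-fold (grey) or at least 2-fold higher (red) in each of the 3 comparisons. In mEpiSC minus 2i, 4 of the 9 genes and 13 of 16 other ESC-associated transcripts are lower, and 0 of 16 SCF and F-box genes are apart. Over all genes compared there, 4.96% are at least 2-fold lower and 4.53% higher.

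Genes with the most similar pattern were found as those with the smallest Euclidean distance between log2 levels centred on each gene's mean over the 3 arrays, among 14539 genes above background on at least 1 array. With 3 points a gene this is a description only. Fbxo15 lay closest to the naive factor genes Nr0b1 (distance 0.13), Tfcp2l1 (0.31) and Zfp42 (0.31), and 6 genes lay within 0.5 of it. Gdf3 lay closest to Nr5a2 (0.0064), an orphan nuclear receptor gene, Spic (0.17) and Gm7762 (0.17). Pecam1 lay closest to the water channel gene Aqp3 (0.039), Dusp27 (0.090) and Morc1 (0.14). Gdf3 and Pecam1 each had 16 genes within 0.5. Utf1 was nearest to Pls1 (0.027), Gas6 (0.028) and Usp44 (0.038), with 299 genes within 0.5, Dppa4 to Bnc2 (0.028), She (0.035) and Ncam1 (0.045), and Dppa2 to Aplp1 (0.080), Scrn1 (0.10) and Map7 (0.10). Flat or dim profiles were shared widely, by 1980 genes for Dppa3, 8779 for L1td1 and 10518 for Dppa5a. Their closest genes were Nipal3, Gm6548 and Macf1 for Dppa3, Anp32e, Csrnp1 and Ubqln1 for L1td1, and LTO1, Mfsd8 and Zup1 for Dppa5a. In mEpiSCs Fbxo15, Nr0b1, Tfcp2l1, Spic, Dusp27, Morc1 and She were not above background, which limits the distances that involve them. Among the 9 genes, Dppa3 and Dppa5a were each other's nearest, at 0.54, as were Gdf3 and Pecam1, at 0.66. Over all genes, Dppa3 was only the gene ranked 10992 in closeness to Dppa5a, and Dppa5a ranked 2392 for Dppa3. The first pair is thus no closer than most genes are to Dppa5a. Pecam1 ranked 29 for Gdf3, and Gdf3 ranked 33 for Pecam1.

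Of the 9 genes, 4 lie in neighbouring pairs, Dppa4 with Dppa2 on chromosome 16 and Gdf3 with Dppa3 on chromosome 6. The gene order was taken from the RefSeq table of assembly GRCm38.p6, with the 3 nearest measured genes on each side. On chromosome 6 the 7 compared genes of the stretch were below 0 in mEpiSC minus 2i, as were 46.2% of all genes compared. Besides Gdf3 and Dppa3, these were the pluripotency factor gene Nanog at -1.99, the glucose transporter gene Slc2a3 at -1.05, Rimklb at -1.20, Foxj2 at -0.37 and the RNA editing enzyme gene Apobec1 at -0.30, while Mfap5 was not compared. Apobec1 lay within the probe set spread of 0.36 and Foxj2 was about equal to it. On chromosome 16, Nectin3 beside Dppa4 was at -0.15 and Plcxd2 at 0.12, both within that spread. Morc1, a germ line silencing gene on the side of Dppa2, stood at 9.29 in Activin+PD, 8.72 in 2i and 5.35 in mEpiSCs, where it was not above background. Cd96, Gm5485 and Trat1 were not above background on any array.

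**Figure D5:**
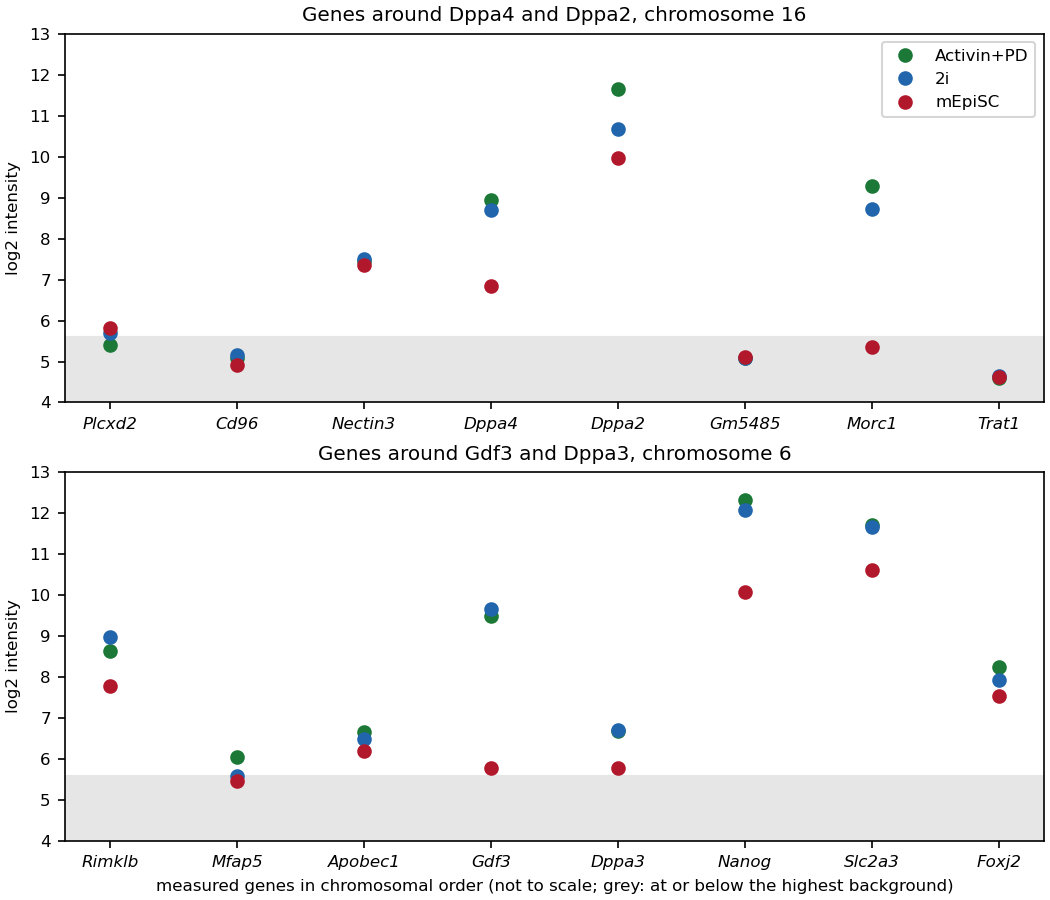
The log2 intensity (vertical axis) of the genes around Dppa4 and Dppa2 and around Gdf3 and Dppa3 is plotted in chromosomal order, not to scale, with 1 point per array and a grey band up to the highest background. The mEpiSC points lie below the mESC points for each chromosome 6 gene compared, whereas on chromosome 16 they do so for Dppa4, Dppa2 and Morc1 and, by -0.15 against 2i, for Nectin3.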

How the data were processed

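Total RNA of 3 cultures was labelled with the GeneChip WT PLUS kit and hybridised to 1 Mouse Gene 2.0 ST array each, per the labels' protocols. The deposited values are intensities on a linear scale, which the authors made with RMA, per the submitters' processing notes. GeneSpring GX 11.5 is named in the design text. The genome build and any constant added before deposit are not given in the sources used here. RMA makes the distributions of the arrays alike, so a difference in total RNA is not visible.

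The log2 of each intensity was taken with numpy 2.4.6, and tables were joined with pandas 2.3.3. Of 33793 probe sets, 23521 had 1 gene symbol, 1814 had several and 8458 were not listed in the platform annotation, and only the first kind was named. Entrez identifiers matched 23328 of these to the RefSeq table, whose symbols were used. A gene with several probe sets was represented by the one with the highest mean, and all 9 members had 1. Background was the 95th percentile of 1405 receptor probe sets. A gene was compared where the brighter of 2 arrays was above its background, and counted where it differed at least 2-fold. Where the dimmer array was not above background, the bound is the brighter level minus that background, and counts use the measured difference. Probe set spread was the SD of the disagreement between the 2 brightest probe sets of a gene, over 591 to 613 genes, divided by the square root of 2. The counting was tested on simulated data, with changes planted in bright genes only and noise smaller than the probe set spread. That test does not cover dim genes or differences near 2-fold.

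With 1 array per group no test was possible. The members and lists were chosen with earlier results of these data known. Named genes were all members, the list genes with the largest differences of at least 2-fold (at most 4 a comparison), the 3 genes of most similar pattern and the 3 measured neighbours on each side. Other list genes named were chosen after their values were seen.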

Additional observations from a re-analysis of the deposited data

How the results depend on the processing

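All 27 differences of the 9 genes kept their sign under each of 7 alternatives that gave a value, and 24 kept their side of 2-fold. The alternatives were the mean of all probe sets, quantile normalisation, median centring and 16 subtracted before log2. The rest were values below background raised to it, background at the 99th percentile and no filter. The mean could not change these differences, as each of the 9 genes had 1 probe set. The 99th percentile and no filter could change only which genes were compared. Agreement under these was thus fixed in advance. Raising values to background altered only Fbxo15 and could not reverse its sign. Subtracting 16 from every intensity could not reverse a sign either, since it keeps the order of 2 values. Only quantile normalisation and median centring were left to change a sign, and both acted on arrays that RMA had already made alike. Dppa2 in Activin+PD minus 2i reached 2-fold under quantile normalisation, median centring and the subtraction, which made 1 gene apart and 1 higher in place of 0. Dppa3 passed 2-fold with 16 subtracted, at -1.18 against 2i and -1.14 against Activin+PD. The subtraction also moved the count of genes 2-fold or more above 2i in Activin+PD from 193 to 295. With background at the 99th percentile, Dppa5a was not compared, and the median of mEpiSC minus 2i was -1.39 because it ran over 8 genes. That background left 4 of 9 genes above it in mEpiSCs (Dppa2, Dppa4, Utf1 and L1td1) and left the mEpiSC minus 2i values of Fbxo15, Gdf3, Pecam1 and Dppa3 as bounds, lower by at least 3.71, 3.25, 2.78 and 0.29. No paired analysis was possible because each group has 1 array. Signal over background limits Dppa5a and the mEpiSC levels of Dppa3, Gdf3, Fbxo15 and Pecam1.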

Other observations

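Within the lists, a few genes set the Activin+PD culture apart from both others. Kit, the receptor of stem cell factor, had log2 levels of 10.12 in Activin+PD, 8.37 in 2i and 7.48 in mEpiSCs, and Tek, the angiopoietin receptor, stood at 7.15, 5.61 and 5.68. Calcoco2 measured 10.87 in Activin+PD against 8.78 in 2i, and was not above background in mEpiSCs. Ooep was 0.97 higher in Activin+PD than in 2i, close to the 0.996 of Dppa2. Phc1, a Polycomb gene listed with the ESC-associated transcripts, was level on the 3 arrays, at 9.97, 10.05 and 10.11. These are values of 1 array each, and none was tested.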
